A study of Eleocharis dulcis with 24 samples.

Results

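The step from initial to middle swelling in the corm of cultivated Eleocharis dulcis (a sedge known as Chinese water chestnut, whose corm is eaten) was followed across genes in 6 RNA sequencing libraries. The compared groups were 3 libraries of cultivated corms at the initial swelling stage and 3 of cultivated corms at the middle swelling stage. They belong to a series of 24 libraries that covers cultivated and wild corms at 4 stages, with 3 biological replicates per group. The labels name no cultivar, growing site, treatment or number of plants per library, so a difference holds for these samples. The genes described reached 1 TPM in 3 or more of the 6 libraries, which kept 23829 of 35975 genes in the table. TPM is the length-normalised share of a gene in its library, scaled to a fixed total. Library totals were therefore all alike, and the sequencing depth behind a value is unknown.

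A corm is a swollen underground stem that stores carbohydrate, mostly as starch, and serves the plant for vegetative propagation. In water chestnut it forms at the tip of a stolon, a thin horizontal stem. Swelling of such storage stems in general combines cell division and cell enlargement with the deposition of reserves. The table pairs no ID with a gene name, so the genes below are given by ID, no function is assigned to them, and the labelled tissue could not be checked against marker genes.

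Most of these genes stood at measurable levels at both stages. A total of 18528 had at least 1 TPM in all 6 libraries. A further 3628 reached 1 TPM in every initial library and in no middle library, and 261 showed the reverse. These 2 sets entered only through the stage at which they were high and so had to differ. Another 1013 genes reached 1 TPM in all initial and in 1 or 2 middle libraries, 228 in all middle and in 1 or 2 initial libraries, and 171 in other combinations. The 4018 genes just inside the limit, with exactly 3 libraries at 1 TPM or more, had median levels of 2.87 TPM at the initial and 0.247 TPM at the middle stage. The 510 genes just outside it, with 2 such libraries, had medians of 1.08 and 0.217 TPM.

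One initial library stood apart from the other two. The share of all TPM that would have to move between genes to turn one library into another was 2.71% between the first and second initial libraries. It was 9.48% and 9.86% between each of these and the third, against 2.85 to 4.04% among the middle libraries. The difference was concentrated in a small set: 31 features were over 1.4 times higher in the third than in each other initial library, at a mean of at least 100 TPM at the initial stage. By the same limits 1 feature was high in the first library alone and 1 in the second alone. The 31 features, chosen for these initial values, held 9.98, 9.65 and 18.8% of all TPM in the 3 initial libraries. They held 2.75, 2.26 and 2.52% in the middle libraries, and 0.701 to 1.90% in the 18 other libraries of the series. Of them, 11 had IDs without the EdulChr prefix, and 7 were among the 10 genes with the highest initial mean. Whether these features share reads with near-identical copies is not shown by the table, so their levels are uncertain. Their part was measured by leaving out the third initial library and by removing the 31 features. This was done for the main counts of called genes, the named genes and the library measures, and not for the other results below.

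**Figure D1:**
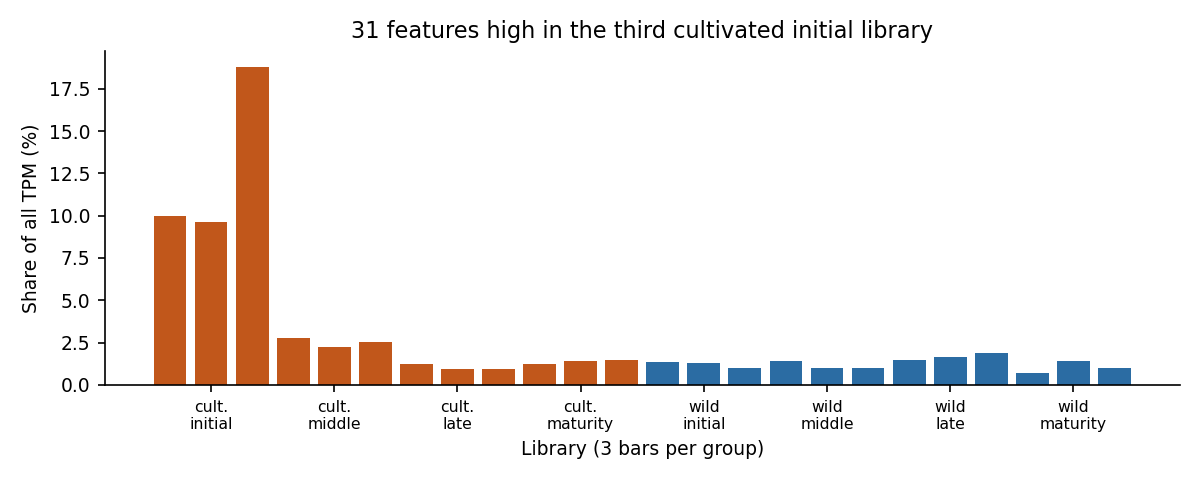
Share of all TPM (percent, vertical axis) held in each of the 24 libraries by the 31 features that were high in the third cultivated initial library, with 3 bars per group in the order of the replicate numbers. The third initial library stands at 18.8%, the other cultivated initial libraries at 9.98 and 9.65%, and all other libraries below 3%.

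The passage from initial to middle swelling moved 38.3 to 42.1% of all TPM from one gene to another, depending on the pair of libraries. The initial library that stood apart gave the highest values: pairs with it lay at 41.6 to 42.1%, and pairs with the other 2 at 38.3 to 38.9%. Wild corms moved 19.9 to 21.1% in the same step. No pair of libraries from the same group of the series moved more than 9.86%. By group means, 8936 genes gained and 21755 lost in the cultivated step. As few as 59 genes made up 50% of the gain, and the 10 largest gains made up 28.4% of it. The loss was spread more widely, since 176 genes were needed for 50% of it. For 90% the numbers were 1523 gaining and 5198 losing genes. In wild corms 53 genes made up 50% of the gain and 346 genes 50% of the loss.

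The most abundant transcripts were largely exchanged. Of the 10 genes with the highest means at the initial stage, 2 were still among the 10 highest at the middle stage, against 8 of 10 in wild corms. Of those 10 cultivated initial genes, 7 were among the 31 features above, and the exchange was not recomputed without them. Single cultivated initial and middle libraries shared 2 to 4 of their 10 highest genes, and libraries of the same cultivated stage shared 8 to 10. Of the 100 highest genes 49 were shared by the cultivated means and 62 by the wild means. Of the 1000 highest the numbers were 654 and 807. Spearman correlations across these genes, which are not independent replicates, were 0.733 to 0.737 between initial and middle cultivated libraries and 0.989 to 0.992 within each stage. Between wild initial and middle libraries they were 0.941 to 0.943.

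The middle libraries held their TPM in fewer genes. The effective number of genes (the number of equally abundant genes that would give the same Shannon entropy) was 3452, 3582 and 2560 in the initial libraries and 2212, 2197 and 2239 in the middle libraries. All middle libraries lay below all initial ones, and the third initial library lay nearest to them. The 50% of TPM held by the highest genes was held by 563, 593 and 391 genes at the initial and by 312, 312 and 320 genes at the middle stage. The number of genes listed at 0 was 6984, 6890 and 6925 at the initial and 10165, 10310 and 10218 at the middle stage. The groups did not overlap in any of these 3 measures. The exact two-sided permutation test gave p = 0.1 for each, which 3 against 3 libraries cannot go below (adjusted p = 0.1 over 5 tests), so none can pass a threshold of 0.05. The mean difference in effective number, -982, was -528 without the 10 genes highest over all libraries and -2230 without the 31 features. That in genes holding 50% of TPM, -201, was -480 without the 31 features. In wild corms the effective number of genes was 4911 ± 18.0 at the initial and 3596 ± 102 at the middle stage, and 6517 ± 93.2 and 6317 ± 13.9 genes were listed at 0 (SD, n = 3).

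Gene by gene, log2(TPM + 1) values were compared with limma, a linear model fitted across 27050 genes and all 24 libraries, and a call required a p under 0.05 after Benjamini-Hochberg adjustment. Of the 23829 genes, 6350 were called higher and 14696 lower at the middle stage. The background shares over all genes in the fit were 24.1% higher and 59.9% lower. A call with a change of at least 2-fold was made for 2437 genes higher (10.2%) and 8228 lower (34.5%), against backgrounds of 9.04% and 30.9%. Every middle library was above every initial one for 6336 genes and below for 14515, against backgrounds of 24.1 and 59.4%. Counts here and below include the 3628 and 261 genes that passed the limit at the initial or middle stage alone. Their direction was fixed by that limit, so part of the excess of lower genes was fixed with it. The calls were not recounted without them. The 95% interval of the change lay wholly beyond 2-fold for 1963 genes higher and 6583 lower, and wholly within 2-fold for 10917 genes. Of the 2783 genes that were not called, 2595 had an interval within 2-fold.

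The excess of lower genes depended on the scale. The median change of the 23829 genes was -0.55 (log2) as deposited. After median-of-ratios scaling over the 6 libraries, which sets the middle of the distribution of genes detected in all 6 close to 0, it was -0.09. The calls of at least 2-fold were then 4386 higher (background 16.3%) and 5397 lower (background 20.2%). Counted from the median change itself, which puts as many genes above 0 as below, they were 4768 higher and 4471 lower. That near balance follows from the centring and shows no direction of its own. The number of genes with at least 2-fold changes moved less: in both directions together it was 10665 as deposited and 9239 to 12192 under the other pseudocount, the scalings and the removal of the highest genes. It was 8341 in limma's treat test, which asks for a change significantly beyond 2-fold, and 6584 of 15918 genes when those with a mean under 5 TPM were left out. Without the third initial library 2334 genes were at least 2-fold higher and 8504 lower, and with the 31 features removed 2057 and 9295. An absolute fall of RNA per cell and a shift of shares cannot be told apart in TPM.

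**Figure D2:**
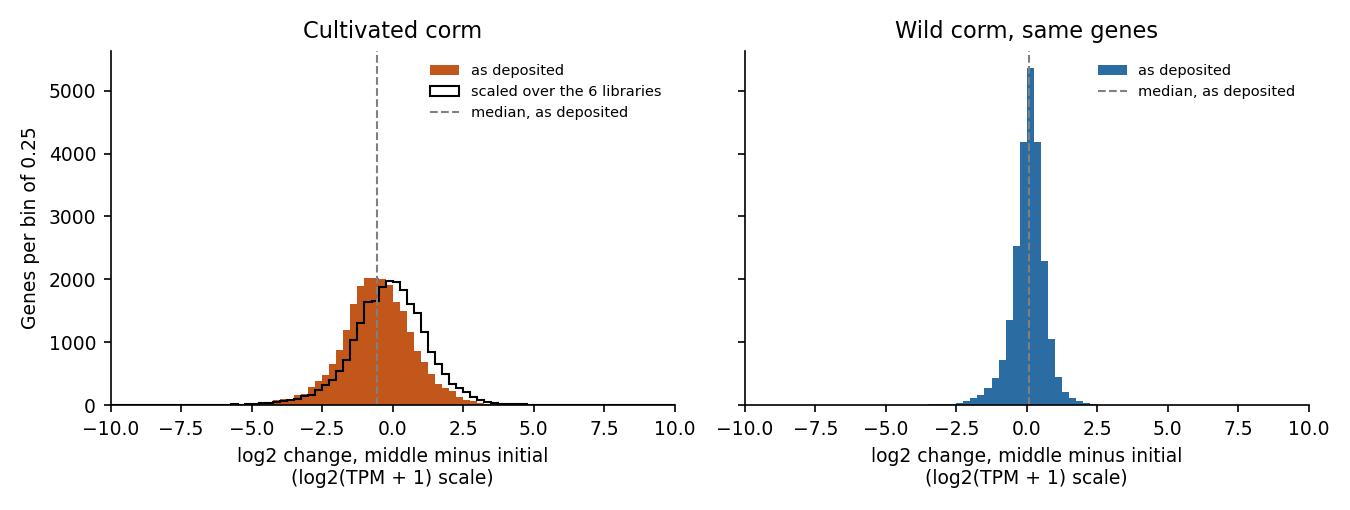
Number of genes (vertical axis) by log2 change from initial to middle swelling (horizontal axis, log2(TPM + 1) scale, bins of 0.25) for the same 23829 genes in cultivated (left) and wild corms (right), with the outline after scaling over the 6 cultivated libraries. The cultivated distribution is wide with a median of -0.55 as deposited and -0.09 after scaling, and the wild one is narrow with a median of 0.08.

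The largest changes were falls. Changes of at least 4-fold were called for 648 genes higher and 2690 lower, and of at least 16-fold for 49 and 345. At least 64-fold, 3 genes were higher and 47 lower. After scaling the 16-fold classes held 78 and 240 genes and the 64-fold classes 6 and 30, so falls were again the larger class. In wild corms 9 genes rose and 14 fell at least 16-fold as deposited. The pseudocount of 1 makes the folds of low genes too small. Genes that passed the limit through a single stage were not left out of these classes, and shares over all genes in the fit were not taken.

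The gene with the largest rise among 4548 eligible ones (called higher, at least 10 TPM at the middle stage, no overlap between groups) was EdulChr3G00014480. It stood at 17.7, 12.3 and 13.9 TPM in the initial libraries and at 3068, 3200 and 2920 TPM in the middle libraries. The choice required that the groups did not overlap, and replicates differed little beside the gap. On the log2 scale EdulChr3G00014480 rose by 7.63 ± 0.26 (SE, adjusted p = 1.67e-16, limma), and by 8.16 after scaling over the 6 libraries. The SE of a step comes from the spread pooled over all 24 libraries, so it is the same in both origins. In wild corms EdulChr3G00014480 went from 18.4, 5.29 and 5.08 TPM to 554, 515 and 550 TPM. The gene rose in both origins (wild change 5.90 ± 0.26, log2, SE, limma adjusted p = 7.89e-14), and the cultivated change was larger by 1.73 ± 0.37 (log2, SE, limma interaction adjusted p = 0.000243). With each compared library left out in turn that difference ran from 1.18 to 2.01. It was lowest without the wild initial library at 18.4 TPM. Every such difference between origins contains the cultivated change that chose the named genes. Its size is thus partly set by the choice.

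The largest gain in TPM was that of novel1867, whose ID lacks the EdulChr prefix. It stood at 1401, 1421 and 1261 TPM at the initial and at 36697, 35813 and 37356 TPM at the middle stage. The choice required groups without overlap, and the feature went from 0.136% to 3.66% of all TPM. The log2 change of novel1867 was 4.75 ± 0.07 (SE, limma adjusted p = 4.91e-22). In wild corms novel1867 was already at 24210, 25837 and 26515 TPM at the initial stage and reached 72010, 77372 and 79674 TPM. The wild log2 change was 1.58 ± 0.07 (SE, limma adjusted p = 1.69e-13), smaller than the cultivated one by 3.17 ± 0.10 (SE, limma interaction adjusted p = 1.83e-16). The cultivated middle libraries lay above every wild initial and below every wild middle library.

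The gene with the largest fall among 7414 eligible ones was EdulChr53G00191470. It stood at 1495, 1539 and 1349 TPM in the initial libraries and at 1.98, 0.83 and 0.97 TPM in the middle libraries. Its change of -9.37 ± 0.13 (log2, SE) had a limma adjusted p of 6.80e-23 and was -10.16 with a pseudocount of 0.1 in place of 1. In wild corms EdulChr53G00191470 stood at 711, 673 and 647 TPM at the initial and at 762, 866 and 836 TPM at the middle stage. That wild difference, 0.28 ± 0.13 (log2, SE), did not pass the test (limma adjusted p = 0.0618). The change differed between the origins by -9.65 ± 0.18 (log2, SE, limma interaction adjusted p = 2.59e-20). Wild libraries reached low values of EdulChr53G00191470 later, with 11.1 ± 1.03 TPM (SD, n = 3) at maturity.

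The largest loss in TPM was that of EdulChr34G00135090, the gene with the highest mean at the initial stage. It stood at 38800, 37886 and 34641 TPM in the initial and at 17971, 18398 and 17032 TPM in the middle libraries. It thus remained among the most abundant transcripts at 1.78% of all TPM. The choice of the gene required that the stages did not overlap. The log2 change of EdulChr34G00135090 was -1.06 ± 0.05 (SE, limma adjusted p = 4.34e-14). With only the 6 compared libraries in the fit the limma adjusted p was 0.0284. After median-of-ratios scaling over the 6 libraries the fall was smaller, -0.51 (limma adjusted p = 4.18e-10). In wild corms EdulChr34G00135090 was lower, at 4183 to 4372 TPM at the initial and 4145 to 4329 TPM at the middle stage, and these groups overlapped. The wild change was -0.01 ± 0.05 (log2, SE, limma adjusted p = 0.874), and the origins differed in it by -1.05 ± 0.07 (SE, limma interaction adjusted p = 2.78e-11). After scaling over the compared libraries that difference was -0.37 (limma interaction adjusted p = 1.12e-05), and over 24 libraries -0.46.

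**Figure D3:**
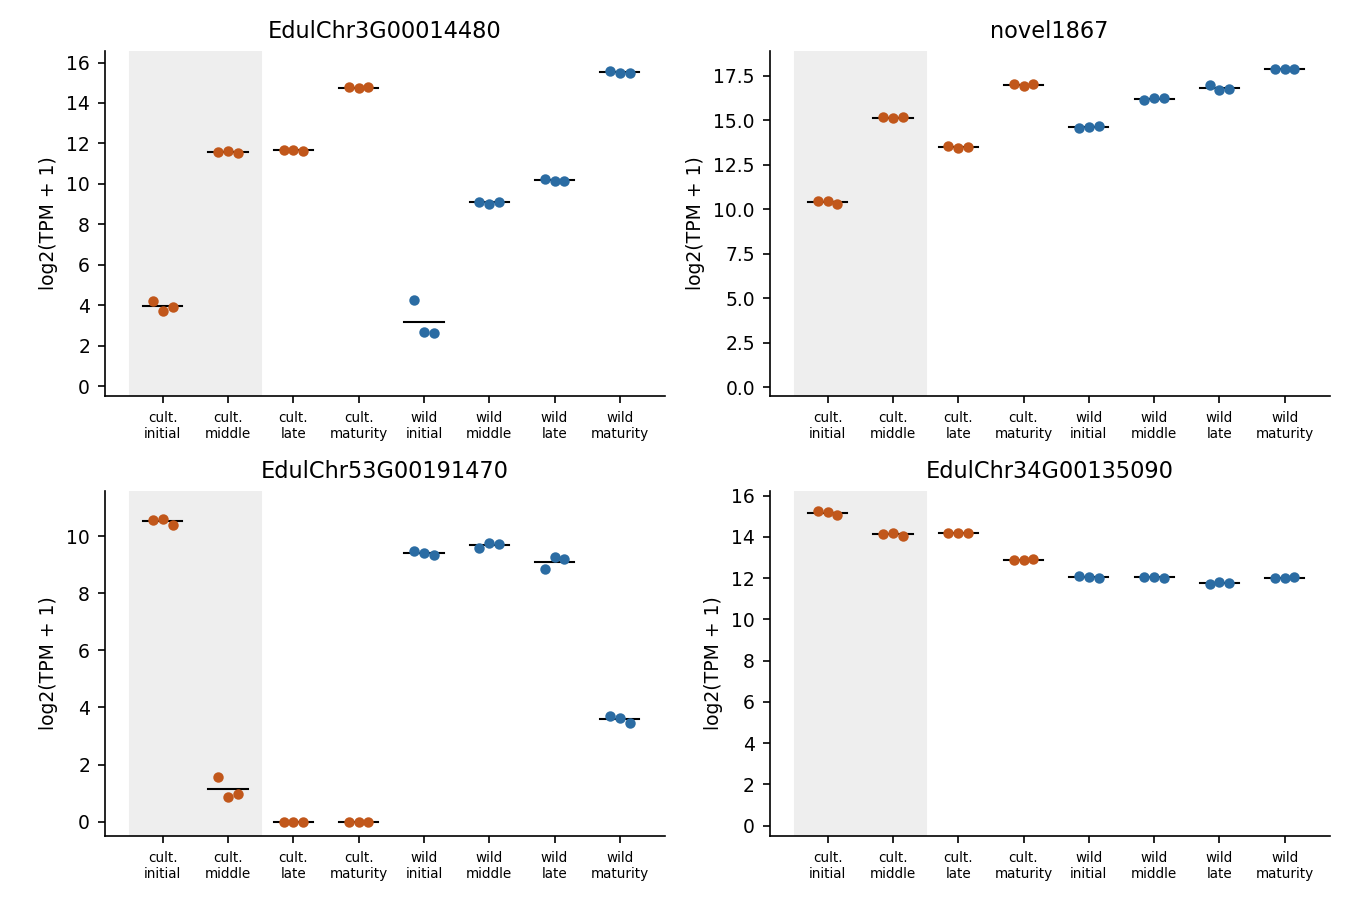
log2(TPM + 1) (vertical axis) of the 4 genes chosen by size of change in each of 24 libraries, with cultivated groups in orange, wild groups in blue, a point per library, a line at the mean of the 3 and the 2 compared groups shaded. EdulChr3G00014480 and novel1867 rise in both origins, while EdulChr53G00191470 and EdulChr34G00135090 fall from initial to middle in cultivated corms, with wild changes of 0.28 and -0.01 (log2) that did not pass the test.

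Abundant and weakly expressed genes moved differently. Among 450 genes with a mean of at least 300 TPM over the 6 libraries, 120 were at least 2-fold higher and 100 lower (26.7 and 22.2%). Among 6570 genes between 10 and 30 TPM the numbers were 760 and 1822 (11.6 and 27.7%). Among 4345 genes between 1 and 3 TPM they were 169 and 2010 (3.89 and 46.3%). The share of higher genes increased from class to class with the level. The median log2 change went the same way, from -0.89 at 1 to 3 TPM through -0.36 at 10 to 30 TPM to 0.24 at 300 TPM and over. After scaling these medians were -0.57, 0.16 and 0.79, so the order of the classes did not depend on the scale, while the level at which rises and falls balanced did. Genes that passed the limit at the initial stage alone, and so had to be lower, lie mostly in the low classes: they numbered 1912 at 1 to 3 TPM, 173 at 10 to 30 TPM and 1 at 300 TPM and over. Those that passed at the middle stage alone numbered 158, 9 and 0, so the shares of the lowest classes are partly set by the limit. In wild corms the share of higher genes was 3.38, 3.33 and 10.7% in the same 3 classes, and that of lower genes 5.62, 4.58 and 5.78%.

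**Figure D4:**
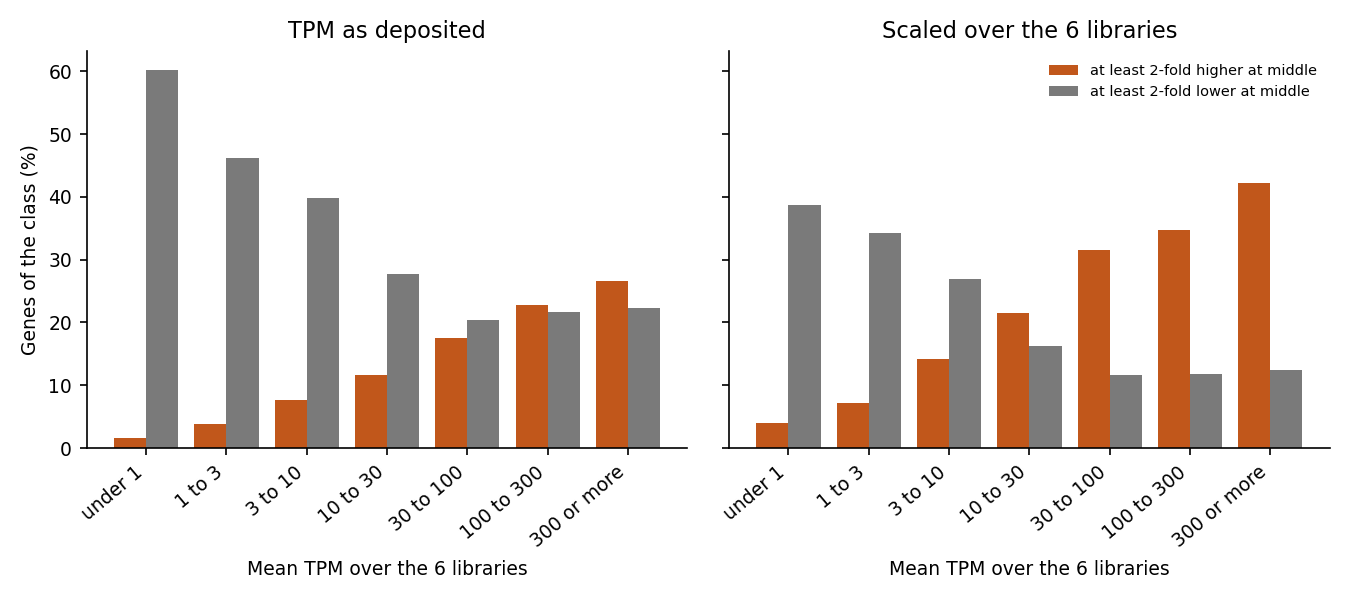
Percentage of genes (vertical axis) called at least 2-fold higher (orange) or lower (grey) at middle swelling in classes of mean TPM over the 6 libraries (horizontal axis), as deposited (left) and after scaling over the 6 libraries (right). The share of higher genes climbs from 1.52% to 26.7% as deposited and from 4.05% to 42.2% after scaling.

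The medians of the changed genes stood near their middle values at the later stages of cultivated corms, although single genes did not: mean TPM of novel1867 was 11660 at the late stage and 131633 at maturity, against 36622 at the middle stage. The 2437 genes at least 2-fold higher had median levels of 8.64 TPM at the initial and 30.1 TPM at the middle stage, values that chose them. In the late and mature libraries, whose levels were not part of the contrast, their medians were 28.3 and 25.7 TPM. The 8228 lower genes went from 9.68 to 1.55 TPM and stood at 2.28 and 1.38 TPM in the 2 later stages. The 13164 remaining genes had medians of 11.1, 9.86, 12.2 and 8.72 TPM over the 4 stages. Of the lower genes, 7886 had their highest cultivated mean at the initial stage and 319 at the late stage. Of the higher genes, 1040 were highest at the middle, 906 at the late and 491 at the mature stage. The choice of these genes left the middle stage out as the highest of the lower genes, and the initial stage out for the higher genes. The numbers thus partly follow from the choice, and shares over all genes were not taken. Together the higher genes held 8.85, 40.4, 37.0 and 54.6% of all TPM over the 4 cultivated stages. The lower genes held 42.9, 11.3, 12.6 and 8.39%.

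The lower genes showed no such drop of their median in wild corms at this step. The 8228 lower genes had wild medians of 9.78 TPM at initial and 9.46 TPM at middle swelling, and of 4.18 and 1.82 TPM at late swelling and maturity. The 2437 higher genes had wild medians of 5.33, 6.77, 9.26 and 4.86 TPM. All 23829 genes had wild medians of 8.84, 9.33, 5.96 and 3.41 TPM, so the late fall of the lower genes stands beside a fall of the whole set. The wild values did not set the direction or size that chose these genes, although all 24 libraries shared the fit's estimate of the spread.

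Some genes went from clear expression to none listed. A set of 104 genes had at least 10 TPM in every initial library and a listed value of 0 in every middle library, out of 11531 genes with at least 10 TPM in every initial library. No gene showed the reverse. With a limit of 0.1 TPM in place of 0 the numbers were 174 and 2. The initial means of the 104 ran from 10.5 to 534 TPM with a median of 20.7 TPM. A total of 75 were also listed at 0 in all 6 late and mature cultivated libraries. In wild corms, whose libraries took no part in the choice, 64 of the 104 had at least 10 TPM in all initial libraries and 76 in all middle libraries. The shares over all 23829 genes were 45.5 and 46.4%. That larger set also holds genes under 10 TPM at the cultivated initial stage, so its shares are not a matched comparison. Shares among the 11531 genes were not taken. By the wild late stage the number was 35, and at maturity it was 1 (shares over all genes 37.0 and 27.6%). A value of 0 in a table without counts can be a failed estimate.

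**Figure D5:**
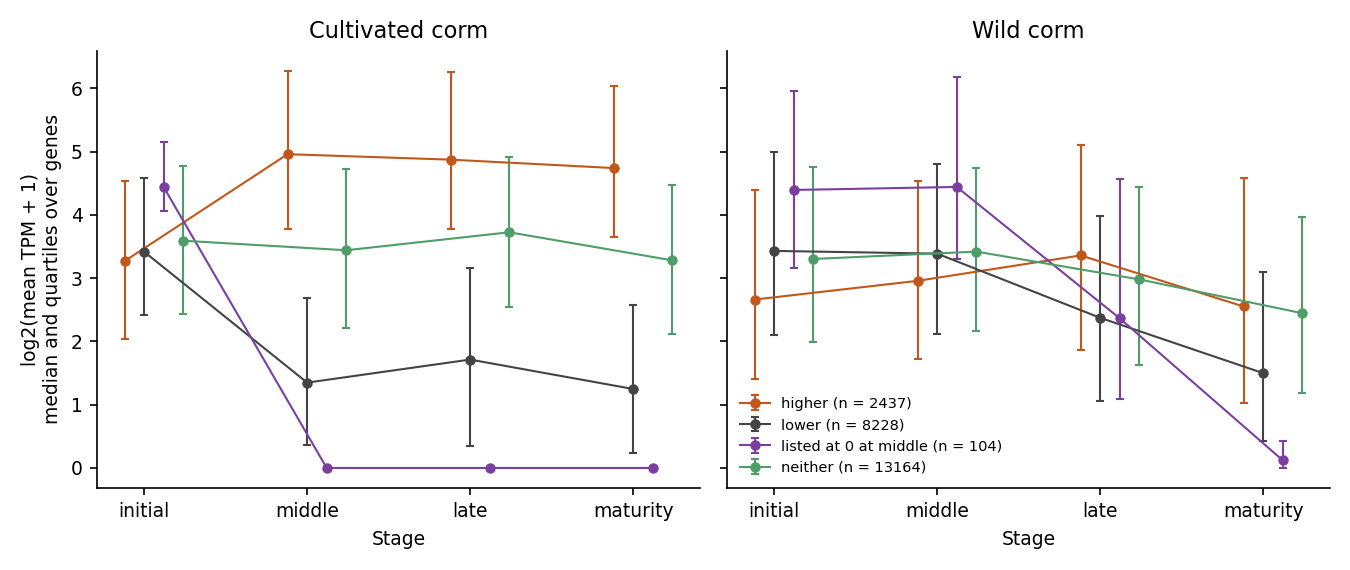
Median and quartiles over genes of log2(mean TPM + 1) (vertical axis) at the 4 stages (horizontal axis) in cultivated (left) and wild corms (right), for genes at least 2-fold higher or lower in the cultivated step, genes in neither group, and the 104 genes listed at 0 at the middle stage, which are among the lower genes. The lower genes drop at once in cultivated corms, from a median of 9.68 to 1.55 TPM, and stay at 9.78 and 9.46 TPM in wild corms until the middle stage.

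The difference between the origins in this step was tested as an interaction. The change was more positive in cultivated than in wild corms for 5424 of the 23829 genes (background 22.6%) and more negative for 14436 (background 58.4%). A difference of at least 2-fold was called for 2305 and 8251 genes (backgrounds 9.42 and 32.7%), and after scaling for 4601 and 4993 (backgrounds 18.2 and 20.1%). In wild corms alone 921 of these genes were at least 2-fold higher and 1223 lower, against backgrounds of 4.36 and 5.81%. After scaling the wild numbers were 704 and 1417 (backgrounds 3.43 and 6.62%). The cultivated and wild changes, which have no library in common, were weakly correlated across the 23829 genes (Pearson 0.128, Spearman 0.192), given as a description. Falls were shared by 588 genes, 7.15% of the cultivated and 48.1% of the wild falls, where 34.5% of all these genes fell in cultivated corms. Rises were shared by 207 genes, 8.49% of the cultivated and 22.5% of the wild rises, where 10.2% rose in cultivated corms. A further 341 genes fell in cultivated and rose in wild corms, 37.0% of the wild rises, near the 34.5% of all these genes that fell in cultivated corms. The reverse held for 164 genes, 13.4% of the wild falls, beside 10.2% of all genes that rose in cultivated corms. After scaling, shared falls were 38.3% of the wild falls (22.6% of all genes fell in cultivated corms) and shared rises 31.5% of the wild rises (18.4% of all rose). Of the wild rises 32.4% fell in cultivated corms, and of the wild falls 19.1% rose there, on the same scale.

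IDs of both kinds took part. Most IDs carry the prefix EdulChr, and 1892 of the 23829 genes had IDs without it. Of these 1892, 87 were at least 2-fold higher and 946 lower, against 2350 and 7282 of the 21937 EdulChr IDs. The unprefixed IDs were weaker, with a median of 3.60 TPM against 9.998 TPM. Among genes with a mean of at least 10 TPM, 9.90% of 404 unprefixed IDs were higher and 44.3% lower, against 15.1 and 24.1% of 10967 EdulChr IDs. After scaling these shares were 16.8 and 31.2% against 26.8 and 13.7%. In wild corms, at the same level, 8.91% of the unprefixed IDs were higher and 6.68% lower, against 4.03 and 4.70% of the EdulChr IDs.

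Unprefixed IDs held 10.4, 10.3 and 14.9% of all TPM in the initial libraries and 8.71, 8.22 and 8.48% in the middle libraries. The groups did not overlap (exact two-sided permutation test, p = 0.1, adjusted p = 0.1 over 5 tests). The mean difference of -3.39 percentage points was -1.87 without the third initial library. It turned to 2.12 when the 31 features were removed, so its direction rests on them. In wild corms the share went from 8.37 ± 0.153% to 13.5 ± 0.263% (SD, n = 3).

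EdulChr IDs carry a number after the prefix, with 111 different numbers among these genes. Whether that number is a chromosome is not stated in the sources used here, and it was used as a label only. Changed genes were found under every number. The share at least 2-fold higher ran from 3.50% to 17.7% with a median of 10.4%, and the share lower from 22.3% to 46.9% with a median of 32.9%. As deposited, the number 85 was at the extreme of both, with 5 of 143 genes higher and 67 lower and a median log2 change of -0.93. It also had the lowest median after scaling, -0.45, where the 111 medians ran up to 0.30. The scaled shares of number 85 were at neither extreme. They were 16.1% higher, where the lowest share was 11.2%, and 32.9% lower, where the highest share was 34.4%. Groups of this size differ by chance too, and no test was made.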

How the data were processed

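The deposited values are TPM, rounded by the authors to 2 decimals, for each gene in each library. The submitters' processing notes name HISAT2 2.0.4, StringTie 2.1.6 and DESeq2 without saying what each did. Which genome build, annotation or filter was used is not given in the sources used here. Columns were matched to samples through the titles, which give origin, stage and number, and none was left over. TPM keeps no depth, so precision comes from the 3 replicates of a group.

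Here log2(TPM + 1) was fitted with limma 3.58.1 in R 4.3.3 (8 group means, eBayes with trend) on the 27050 genes that reached 1 TPM in 3 or more of 24 libraries, and p-values were adjusted over all of them. The step was also run on simulated data with known changes in a small part of the genes and no fixed total. That run cannot show how the calls behave where most genes change, as here. Library measures were compared with exact permutation tests in SciPy 1.17.1. Named genes were, in each direction, the largest log2 change and the largest TPM difference among called genes whose groups did not overlap and whose higher group had a mean of 10 TPM or more. The comparison, its rules and its tests were chosen with earlier results of these data known. Alternatives were other pseudocounts, filters, scalings and fits, a replicate block and each library left out. The removal of the 31 features was chosen after seeing the data. Same-numbered initial and middle cultivated libraries had deviations that correlated at 0.211, -0.067 and 0.168, so the numbers were not taken as pairs. No gene lists or gene names were used.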

Additional observations from a re-analysis of the deposited data

Results flagged for a closer look

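These results are differences between the origins in the limma interaction test. The named genes were chosen by the size of their cultivated change, which is part of the same contrast. The size of their difference between origins is thus partly set by that choice. From initial to middle swelling the cultivated change was more positive than the wild one for 5424 genes (limma interaction, adjusted p under 0.05). It was more negative for 14436. The background shares over all genes in the fit were 22.6 and 58.4%. After scaling over the compared libraries the numbers were 9694 and 9580, so the excess of more negative changes depended on the scale. The cultivated log2 change exceeded the wild one (or, if negative, fell short of it) by 1.73 for EdulChr3G00014480, 3.17 for novel1867, -9.65 for EdulChr53G00191470 and -1.05 for EdulChr34G00135090. Groups of 3 are too small for a test of single outlying samples.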

How the results depend on the processing

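The named genes kept their direction and call under the alternatives run for them, except for EdulChr34G00135090 in limma's treat test. That test, against a change of 1 (log2), gave it an adjusted p of 0.363 with a change of -1.06. With the 10 highest genes removed only EdulChr53G00191470 was left to test. The small p-values rest on a spread shared by 24 libraries. With only the 6 compared libraries in the fit, limma adjusted p was 3.42e-07 for EdulChr3G00014480 and 1.81e-06 for novel1867. It was 4.80e-07 for EdulChr53G00191470 and 0.0284 for EdulChr34G00135090.

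For the cultivated step, a mean of at least 5 TPM left 8883 genes lower, 4500 of them at least 2-fold, in a set of 15918 genes. Scaling over 24 libraries gave 4125 at least 2-fold higher and 5171 lower. Scaling over the 6 libraries gave 9716 higher, with 4386 and 5397 at least 2-fold higher and lower. The treat test called 1914 higher and 6427 lower. Changes counted from the median gave 10294 higher, with 4768 and 4471 at 2-fold.

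For the wild step, 1767 genes were at least 2-fold higher with a pseudocount of 0.1, and 5971 were higher at a mean of at least 5 TPM. For the difference between origins, a mean of at least 5 TPM left 5352 at least 2-fold lower. Scaling over 24 libraries gave 8996 higher, with 4145 and 4984 at 2-fold. Scaling over the 12 compared libraries gave 9694 higher and 9580 lower, with 4601 and 4993 at 2-fold. Apart from the smaller sets at 5 TPM, the causes were not tested.

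The difference in detected genes, middle minus initial, was -4138 at 1 TPM, -3605 at 0.1 TPM, -3416 at 5 TPM, -3877 without the 10 highest genes and -4389 without the 31 features. The difference in effective number of genes was -528 without the 10 highest genes and -2230 without the 31 features. That in genes holding 50% of TPM was -480 without the 31 features. That in the share of IDs without the EdulChr prefix was -7.40 points without the 10 highest genes and 2.12 without the 31 features.

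Leaving out each library in turn gave 6025 to 6390 higher and 14288 to 14826 lower genes, and at 2-fold 2334 to 2506 and 8046 to 8504. With a replicate block the cultivated counts were 6340 and 14669, and 2437 and 8228 at 2-fold, and no named gene lost its call. The numbers do not pair the samples, since same-numbered libraries correlated at 0.211, -0.067 and 0.168, and 1 of the 3 initial and 2 of the 3 middle libraries did not correlate best with their own number.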
